A study of Mus musculus with 3 samples.

Results

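*Sox9*, *Lhx2*, *Cd34*, *Lgr5*, *Fgf18*, *Postn*, *Abi3bp* and *Rflnb* were 8 of the 19927 genes listed in single-cell libraries of mouse dorsal skin, and they are described here as genes of the hair follicle bulge and outer root sheath. They were chosen by measured values of these same libraries, namely their pooled level, the share of cells with a count, their detection in the same cells and their level in cells with much *Krt14*. All of these measures are therefore given as descriptions, without a test.

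The outer root sheath is the outermost epithelial layer of the hair follicle and is continuous with the basal layer of the epidermis, with which it shares the keratins Krt5 and Krt14. The bulge is the part of that sheath below the sebaceous gland where the slowly dividing hair follicle stem cells (HFSCs) reside between growth phases. Transcription factors such as Sox9 and Lhx2 maintain this population, and Cd34 and Lgr5 are surface proteins used to recognise it, Lgr5 also marking the lower outer root sheath during growth.

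The libraries came from P18 dorsal skin, the age at which the follicles of the first coat pass through catagen, the regression phase. There were 2 control libraries (*Vdr* flox/flox) and 1 library labelled *Vdr* cKO (*Vdr* flox/flox; Krt14cre), in which Cre recombinase driven by the *Krt14* promoter is to delete the vitamin D receptor gene in basal keratinocytes and their progeny, and the floxed allele is common to every group. According to the methods, each library pooled the skin of several male mice, so single animals cannot be told apart. The cells were scraped from trypsin-treated skin and captured in droplets, and values are given for control 1, then control 2, then the *Vdr* cKO label, in which 1480, 1658 and 2622 cells were kept.

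These cells held 18802408, 28690129 and 30954897 counts. The median number of genes detected in a cell drawn down to 1000 counts was 265, 309 and 393, while a gene detected in a cell held 22.8, 21.2 and 11.8 counts there on average, so the libraries differed in how many genes the same number of counts covered. *Vdr* itself stood at 40.7, 35.9 and 80.8 CPM (counts scaled to a library total of 1000000), and reads collected at the poly-A end of the transcript do not check the deletion of an internal exon. *Xist*, which is transcribed from the inactive X chromosome of females, had no count in either control and 4390 counts in 740 cells of the library labelled *Vdr* cKO. There, 4 Y-linked genes summed to 77.6 CPM against 234 and 211 CPM, so the library does not match a pool of males and is called by its label throughout. Between 18 and 21 cells of a library carried a barcode that another library also held, and 3, 7 and 10 of them had a count of any of the 8 genes. Without these and near-identical barcodes the same 6 genes were called.

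Pooled levels are in CPM, each with an exact 95% Poisson interval that covers no more than counting error. The interval treats every count as independent, while single cells often held many counts of a gene, so it is too narrow. With 1 library labelled *Vdr* cKO there is no replicate and no p-value, and the distance between the controls is the only measure of the spread between libraries. Of the 8 genes, 7 reached 10 CPM in some library, and 6 of these were over 2-fold higher in the library labelled *Vdr* cKO than in both controls, where 8.83% of the 8806 genes at that level were. None was over 2-fold lower than both controls, where 1.79% of genes were. Since the genes were chosen with this contrast known, nothing is read from the difference from the background. Neither control exceeded both other libraries 2-fold for any of the 8 genes, against 2.99% and 1.1% of all genes, respectively. Control 1 lay over 2-fold below both others for 2 of the genes at the level (*Fgf18* and *Abi3bp*), against 6.6% of all genes, and control 2 for 3 (*Sox9*, *Lhx2* and *Postn*), against 6.31%. The median log2 fold over the control mean, with 1 CPM added to each, was 2.54 for the 8 genes and ranged from 1.07 to 3.99, beside a median of 0.14 for all genes at the level.

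**Figure D1:**
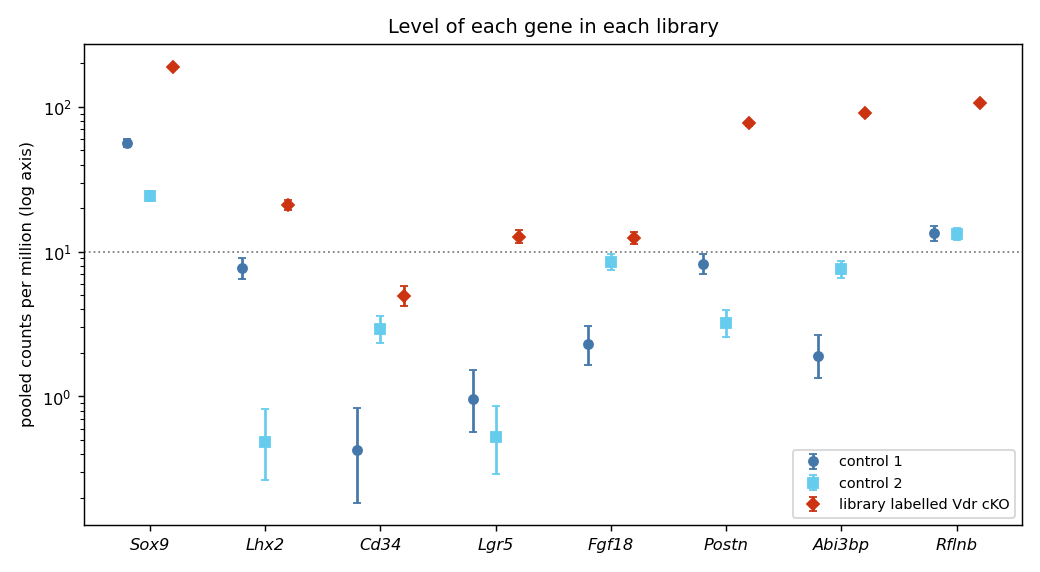
Pooled level of the 8 genes in each library, in CPM on a log axis, with exact 95% Poisson intervals; the dotted line is the minimum level of 10 CPM. The library labelled *Vdr* cKO is the highest for every gene, by the least for *Fgf18* and *Cd34*, and the control pair lies far apart for *Lhx2*, *Cd34*, *Fgf18* and *Abi3bp*.

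Among the transcription factors, *Sox9*, which specifies and maintains HFSCs and the outer root sheath, had a level of 56.3 CPM (interval 53.0 to 59.8), 24.3 CPM (22.6 to 26.2) and 187 CPM (182 to 192). Its log2 fold was 2.19, where the controls differed by 1.18 on the same scale. The number of cells with a count was 44, 72 and 624, and these cells held a median of 5.5, 3 and 4 counts of *Sox9*. The libraries thus differed more in how many cells had a count than in the counts within such a cell, and 22.0% of the *Sox9* counts of control 1 lay in 1 cell.

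*Lhx2*, a LIM-homeodomain factor that keeps HFSCs in their undifferentiated state, reached 7.66 CPM (6.46 to 9.02), 0.49 CPM (0.27 to 0.82) and 21.0 CPM (19.4 to 22.7). The library labelled *Vdr* cKO was 2.75 times the nearer control, the smallest excess among the genes called. Its log2 fold of 2.12 was less than the distance of 2.54 between the controls, and only 11 and 6 control cells had a count, against 137 cells.

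Of the surface proteins, *Cd34*, the sialomucin used to sort bulge cells, was the least detected, with 4, 4 and 22 cells. Its level was 0.43 CPM (0.18 to 0.84), 2.93 CPM (2.34 to 3.62) and 4.94 CPM (4.19 to 5.79), so it did not reach the minimum level, and 73 of its 84 counts in control 2 came from 1 cell. It thus had few cells in every library, and single cells weighed heavily in its level.

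*Lgr5*, the R-spondin receptor that marks cycling follicle stem cells, was at 0.96 CPM (0.57 to 1.51), 0.52 CPM (0.29 to 0.86) and 12.7 CPM (11.5 to 14.05), in 2, 3 and 57 cells. The controls had overlapping intervals, but 14 of 18 and 11 of 15 counts lay in a single cell. The level was 13.3 times that of the nearer control, and the log2 fold was 2.98 beside a control distance of 0.36. An *A930009A15Rik* transcript lies within *Lgr5* on the opposite strand, and it was not stated whether the counting used strand.

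*Fgf18*, a fibroblast growth factor that bulge keratinocytes secrete in the resting phase and that holds follicles in rest, differed least. It was measured at 2.29 CPM (1.66 to 3.08), 8.50 CPM (7.47 to 9.64) and 12.4 CPM (11.2 to 13.7), in 3, 12 and 39 cells. The library labelled *Vdr* cKO was 1.46 times the nearer control, and the controls were 1.53 apart on the log2 scale, where the fold was 1.07. Single cells held 24 of the 43 counts in control 1 and 106 of the 244 in control 2.

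Both extracellular matrix genes were called. *Postn*, encoding periostin, a secreted protein that binds collagen and integrins and is also made by dermal fibroblasts, was at 8.24 CPM (6.997 to 9.65), 3.21 CPM (2.59 to 3.93) and 76.9 CPM (73.8 to 80.01). A count was found in 18, 13 and 344 cells, and the level was 9.32 times that of the nearer control. *Abi3bp*, which encodes a secreted matrix protein with an SH3-binding motif, was at 1.91 CPM (1.34 to 2.65), 7.56 CPM (6.59 to 8.64) and 90.2 CPM (86.8 to 93.6), in 4, 17 and 285 cells.

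The log2 fold of *Abi3bp* was 3.99 and that of *Postn* 3.53, an order that turned without control 1, at 3.41 and 4.21. The controls of *Abi3bp* were 1.55 apart, in the opposite order to those of *Sox9*, *Lhx2* and *Postn*. *Rflnb*, encoding refilin B, a filamin-binding regulator of actin bundles, showed the closest controls, 13.4 CPM (11.8 to 15.2) and 13.3 CPM (11.98 to 14.7), and 106 CPM (103 to 110) in the library labelled *Vdr* cKO. Its excess over the nearer control was 7.92-fold, and the number of cells with a count was 18, 27 and 337.

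The fibroblast markers *Col1a1*, *Col1a2*, *Col3a1*, *Dcn* and *Lum* summed to 8.72, 0.77 and 3.78 CPM, and none of them reached 10 CPM. *Col3a1* and *Lum* had no count in the library labelled *Vdr* cKO, while *Dcn* was at 0.80, 0.07 and 1.23 CPM. *Pdgfra*, the remaining gene of that list, was not listed. Endothelial markers summed to 4.20, 2.41 and 2.10 CPM. Genes of other follicle layers and of melanocytes were higher along with the group. All 4 inner root sheath genes (*Tchh*, *Krt27*, *Krt71* and *Krt25*) were over 2-fold above both controls and summed to 0.59, 0.42 and 222 CPM, with 3 and 2 of them at 0 in control 1 and control 2. The companion layer keratins *Krt75* and *Krt6a* summed to 14.1, 37.2 and 212 CPM. Hair shaft and matrix genes summed to 3.83, 2.44 and 27.6 CPM, with *Krt35* and *Msx2* called, and melanocyte genes to 4.10, 3.49 and 39.3 CPM, with *Dct* called. Immune genes summed to 138, 195 and 260 CPM, and none was called. *Krt14* was at 857, 611 and 2008 CPM, and the summed level of 5 genes of differentiated epidermis was 69483, 78383 and 55859 CPM. The part of these differences in the levels of the 8 genes was not tested.

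A list of 26 other genes of the bulge and outer root sheath was set beside the 8. Of these, 25 were listed, 19 reached 10 CPM, 14 were over 2-fold above both controls and none was over 2-fold below both, with a median log2 fold of 1.84 over the 25 genes. The 4 with the highest levels were *Krt15*, a keratin of the bulge and the basal layer, *Col17a1*, the hemidesmosomal collagen needed to keep HFSCs anchored, *Barx2* and *Il1r2*. *Krt15* was at 2944, 2122 and 7648 CPM, and *Col17a1* at 74.0, 62.6 and 388 CPM. *Barx2*, a homeobox gene, at 125, 163 and 189 CPM and *Il1r2*, a decoy receptor for interleukin-1, at 95.9, 101 and 134 CPM were not over 2-fold apart.

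The other genes called had log2 folds between 1.21 and 4.13. They were the transcription factors *Foxc1* (1.73), *Tbx1* (4.13), *Runx1* (3.31) and *Foxp1* (1.21), the Wnt and BMP modulators *Sfrp1* (3.29) and *Fst* (2.37), the membrane proteins *Cd200* (1.84) and *Gas1* (2.38), the matrix or secreted proteins *Npnt* (2.31), *Angptl7* (2.05) and *Ccn2* (2.89), and *Id2* (1.36). *Tbx1* had no count in control 1. *Nfatc1*, the factor that holds bulge cells quiescent, was at 26.0, 13.4 and 28.2 CPM and *Slc1a3* at 17.3, 11.7 and 9.79 CPM, so neither was called.

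**Figure D2:**
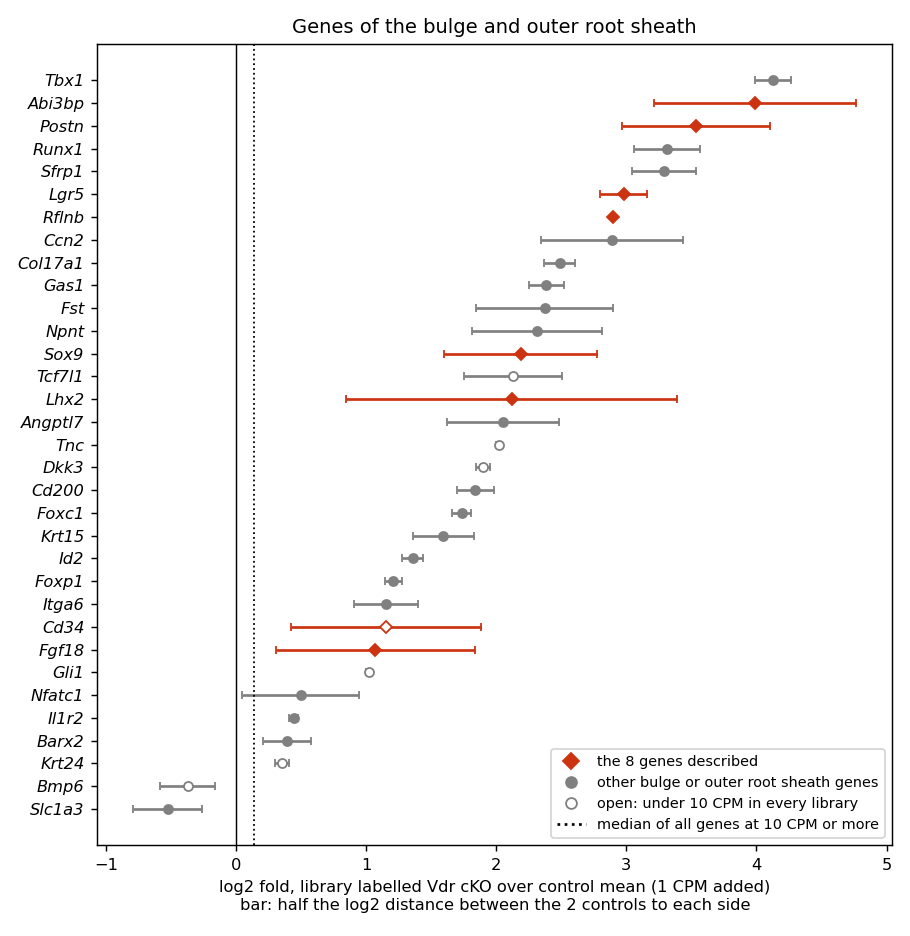
Log2 fold over the control mean in the library labelled *Vdr* cKO for the 8 genes (red diamonds) and 25 other genes of the bulge and outer root sheath (grey circles), with bars whose whole length is the log2 distance between the controls and open markers for genes under 10 CPM in every library. All of the 8 lie above the dotted median of all genes (0.14), from *Fgf18* (1.07) to *Abi3bp* (3.99), among the other genes of the list, of which *Bmp6* and *Slc1a3* lie below 0.

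Scaling moved all genes together, without changing which of the 8 were called. With edgeR TMM factors the median log2 fold of all genes went from 0.14 to -0.05, the genes over 2-fold above and below both controls from 778 and 158 to 560 and 247, and the median of the 8 genes from 2.54 to 2.37. DESeq2 median-of-ratios factors gave -0.08, 537 and 269 genes, and 2.34. *Fgf18* was the gene whose call turned on 1 library: without control 2 it was called, and so it was when the cell with the most counts of each gene was left out of every library, at 1.01, 4.81 and 10.3 CPM.

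RefSeq promoter windows of GRCm38.p6, 250 bases before to 50 after a start site, were found for 5 of the 8 genes (*Lhx2*, *Cd34*, *Fgf18*, *Postn* and *Rflnb*, 7 windows). In GENCODE M21 on GRCm38, *Postn* lies on chromosome 3 from 54361109 to 54391037 on the plus strand and *Rflnb* on chromosome 11 from 76019194 to 76027782 on the minus strand. Their windows are shown because both genes were called and were detected together above the product of their shares, with matched motifs in capitals.
Postn, chr3:54360857-54361156, plus strand: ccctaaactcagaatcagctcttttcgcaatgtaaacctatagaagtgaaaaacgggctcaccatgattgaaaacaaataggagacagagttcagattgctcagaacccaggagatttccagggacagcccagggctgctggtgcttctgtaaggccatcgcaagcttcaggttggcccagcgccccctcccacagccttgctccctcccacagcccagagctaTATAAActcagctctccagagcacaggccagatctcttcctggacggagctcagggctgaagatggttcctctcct
Rflnb, chr11:76027733-76028032, minus strand: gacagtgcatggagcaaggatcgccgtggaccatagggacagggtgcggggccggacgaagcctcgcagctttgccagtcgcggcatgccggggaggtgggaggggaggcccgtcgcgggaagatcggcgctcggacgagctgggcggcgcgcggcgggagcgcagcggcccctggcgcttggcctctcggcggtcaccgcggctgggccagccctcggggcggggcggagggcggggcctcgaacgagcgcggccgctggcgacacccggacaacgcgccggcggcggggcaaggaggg
Both strands were searched for AGGTCA, the element of the vitamin D receptor and other nuclear receptors, a direct repeat of it with 3 bases between, to which the vitamin D receptor binds and which holds the shorter motif, TAATTA of homeodomain factors, ACAATG of Sox factors, CTTTGA of Tcf/Lef factors and TATAAA, the TATA box. In the *Postn* window the TATA box was the only match, at bases 225 to 230 of the window, and 13.6% of all 32851 windows held it. The *Rflnb* window held none of the 6 motifs and was 77.0% G or C against 53.0% for *Postn*. Among the other windows of the group the only match was AGGTCA in a second *Postn* window further upstream, a motif found in 16.3% of all windows. The homeodomain, Sox and Tcf/Lef motifs were in 5.29%, 12.6% and 16.0% of all windows and the direct repeat in 2 of them. A match describes the letters of the window only.

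The remaining genes lie on GRCm38 chromosome 11 from 112782224 to 112787760 (*Sox9*, plus strand) and from 33117430 to 33147400 (*Fgf18*, minus), chromosome 2 from 38339281 to 38369733 (*Lhx2*, plus), chromosome 1 from 194938819 to 194961279 (*Cd34*, plus), chromosome 10 from 115450311 to 115587780 (*Lgr5*, minus) and chromosome 16 from 56477878 to 56690135 (*Abi3bp*, plus). Annotated antisense transcripts overlap *Lhx2* and *Cd34*, as does the gene named above for *Lgr5*, and no gene overlaps the other 5.

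Because a share of cells with a count depends on depth, 1000 counts were taken at random from each cell, and 14, 61 and 60 cells with fewer were not used. The share with a count was then higher in the library labelled *Vdr* cKO than in both controls for each of the 8 genes. How many of all genes were higher there was not counted, so nothing is read from this number. The same 1000 counts covered a median of 265, 309 and 393 genes. The share with *Sox9* was 1.23% (exact binomial 95% interval 0.73 to 1.93), 1.63% (1.07 to 2.38) and 11.9% (10.6 to 13.2). Averaged over all possible draws the *Sox9* shares were 1.41%, 1.72% and 10.4%, so the draw used lay high for this gene, and without drawing they were 2.97%, 4.34% and 23.8%.

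The share with *Rflnb* was 0.27% (0.07 to 0.70), 0.81% (0.43 to 1.39) and 5.97% (5.09 to 6.96). That with *Postn* was 0.89% (0.47 to 1.51), 0.31% (0.10 to 0.73) and 5.54% (4.69 to 6.50). *Abi3bp* had shares of 0.27% (0.07 to 0.70), 0.44% (0.18 to 0.90) and 4.57% (3.79 to 5.45). For these 3 genes, too, the intervals of the library labelled *Vdr* cKO lay above those of both controls.

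*Lhx2* was found in 4 of 1466, 1 of 1597 and 40 of 2562 drawn cells, or 0.27%, 0.06% and 1.56%, and *Lgr5* in 2, 1 and 27 cells, or 0.14%, 0.06% and 1.05%. The intervals of both, 1.12 to 2.12 and 0.70 to 1.53 in the library labelled *Vdr* cKO, also lay above those of the controls. *Cd34* with 1, 2 and 9 cells and *Fgf18* with 1, 3 and 5 cells had overlapping intervals, so that no difference in their shares was detectable at this depth. Any of the 8 genes was found in 2.93%, 3.57% and 25.5% of drawn cells.

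When 200 detected genes were drawn from every cell in place of 1000 counts, which sets the number of genes equal in every cell, the shares of all 8 genes in the library labelled *Vdr* cKO were lower than at 1000 counts. The intervals of *Sox9*, *Postn*, *Rflnb*, *Abi3bp* and *Lhx2* (0.62 to 1.40) still lay above those of both controls. That of *Lgr5* (0.26 to 0.85) overlapped those of both controls, whose upper limits were 0.49 and 0.34. *Sox9* then had 1.01%, 0.72% and 5.26% (4.44 to 6.19), *Postn* 0.68%, 0.24% and 3.01% (2.39 to 3.74), *Rflnb* 0.34%, 0.30% and 2.40% (1.85 to 3.06) and *Abi3bp* 0.07%, 0.24% and 2.29% (1.75 to 2.94).

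Free RNA in the droplets also gives counts, so the tenth of the cells with the most *Lor*, the loricrin gene of the granular layer, served as a background. It is not free of basal features, since 29 of 148, 28 of 166 and 105 of 262 of these cells were also *Krt14*-high as defined further on. In the library labelled *Vdr* cKO 8.73% of 252 such cells had *Sox9* (5.55 to 12.9) at 1000 counts against 12.2% of the other cells, and 4.37% had *Rflnb* (2.20 to 7.68) against 6.15%. For *Postn* the shares were 2.78% (1.12 to 5.64) and 5.84%, and for *Abi3bp* 1.98% (0.65 to 4.57) and 4.85%. In this 1 draw the other cells lay above the interval of the *Lor*-high cells for *Postn* and *Abi3bp*. Averaged over all draws, *Sox9* was in 6.46%, *Rflnb* in 4.49%, *Postn* in 3.27% and *Abi3bp* in 2.85% of these *Lor*-high cells. The averages in all cells of that library were 10.4%, 5.53%, 5.75% and 4.38%, and averages have no interval here. The draw used thus lay low for *Postn* and *Abi3bp*, and high for *Sox9*, in *Lor*-high cells. The median depths were 5240 counts in *Lor*-high and 4085 in other cells before drawing. At 200 genes *Sox9* was in 4.96% of the *Lor*-high cells (2.67 to 8.34) and in 5.30% of the others, *Postn* in 3.05% (1.33 to 5.93) against 3.01%, *Rflnb* in 1.91% (0.62 to 4.397) against 2.46% and *Abi3bp* in 1.53% (0.42 to 3.86) against 2.37%. At that depth all 4 genes were within counting error of this background, and *Lor* itself had a count in 2521 of the 2622 cells of that library. In the controls 0 of 145 and 0 of 157 *Lor*-high cells had *Sox9* in the draw of 1000 counts used, with upper exact limits of 2.51% and 2.32%, but *Rflnb* was in 1.91% (0.40 to 5.48) of those of control 2 against 0.69% of its other cells. Averaged over all draws, *Sox9* was in 0.19%, 1.09% and 6.46% of the *Lor*-high cells of the 3 libraries. Without drawing, 2 of 148 and 5 of 166 *Lor*-high control cells had it.

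**Figure D3:**
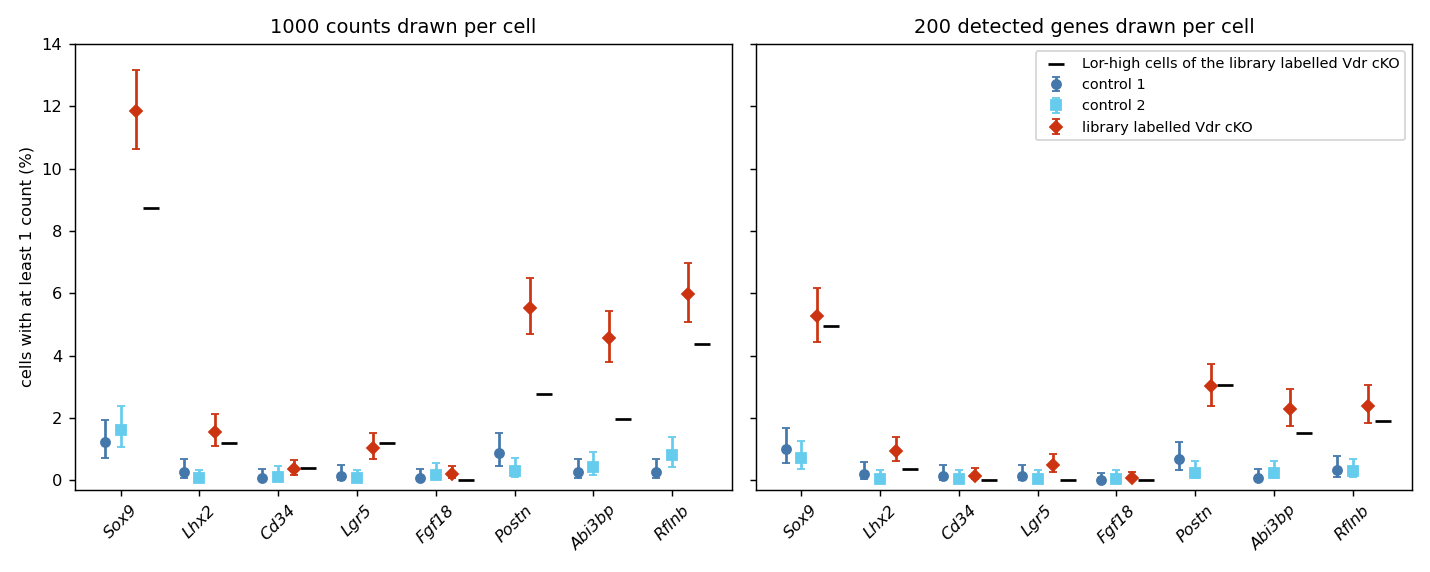
Share of cells with at least 1 count of each gene, in percent, after drawing 1000 counts (left) or 200 detected genes (right) from every cell, with exact 95% binomial intervals. Black dashes give the share in *Lor*-high cells of the library labelled *Vdr* cKO, which for *Sox9* is 8.73% on the left and 4.96% on the right, and the control shares are under 2% throughout.

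Detection of the genes in the same cells was counted next, at 1000 counts. At least 2 of the 8 genes were found in 4 cells (0.27%, 0.07 to 0.70) of control 1, 1 cell (0.06%, 0.0016 to 0.35) of control 2 and 125 cells (4.88%, 4.08 to 5.79) of the library labelled *Vdr* cKO. Multiplying the single shares as if genes were spread independently over cells gave 0.04%, 0.05% and 3.27%. In that last library 18 cells had at least 3 of the genes and 1 cell had 4, and no control cell had 3. The average over all draws was 0.21%, 0.16% and 4.30% for at least 2 genes.

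Of the 28 pairs, 20 were found together more often than the product of their shares in the library labelled *Vdr* cKO, on the average over all draws. Pairs of other genes were not counted beside these, so nothing is read from this number. Some of the 20 rested on very few cells with both genes, such as *Lgr5* with *Fgf18* (0.14 on average) and *Cd34* with *Lgr5* (0.71). Among the 8 pairs with an average of at least 5 such cells, the ratio ran from 1.19 for *Abi3bp* with *Rflnb* to 3.48 for *Lhx2* with *Rflnb*. *Sox9* and *Rflnb* shared 27.0 cells on average, 1.82 times the product, *Sox9* and *Postn* 26.2 cells, 1.71 times, and *Postn* and *Rflnb* 20.1 cells, 2.46 times. The matrix genes *Postn* and *Abi3bp* shared 4.98 cells, 0.77 times the product, and the ratio was 1.11 at 200 genes (2 cells). Without drawing it was 1.34 (50 cells), but depth was not matched there and all 28 pairs lay above the product.

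In the 1 draw of 1000 counts, *Lhx2* and *Rflnb* were found together in 11 cells, 27.5% of the cells with *Lhx2* and 7.19% of those with *Rflnb*, where the product gave 2.39 cells. *Sox9* and *Cd34* were found together in none of the 2562 cells, where the product gave 1.07. Without drawing, where depth was not matched and every pair lay above the product, they shared 10 cells against 5.24. With 200 genes drawn, *Lhx2* and *Rflnb* still shared 5 cells against a product of 0.60, but *Sox9* and *Postn* shared 4 against 4.16 and *Postn* and *Rflnb* 2 against 1.90. At that depth 1, 0 and 30 cells had at least 2 of the genes, and 1.14% in the library labelled *Vdr* cKO stood beside 0.78% from the product. Cells with a count of these genes also had more detected genes at 1000 counts, a median of 426 for those with at least 2 against 391 for the rest, and the part of this in the shared detection was not tested.

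**Figure D4:**
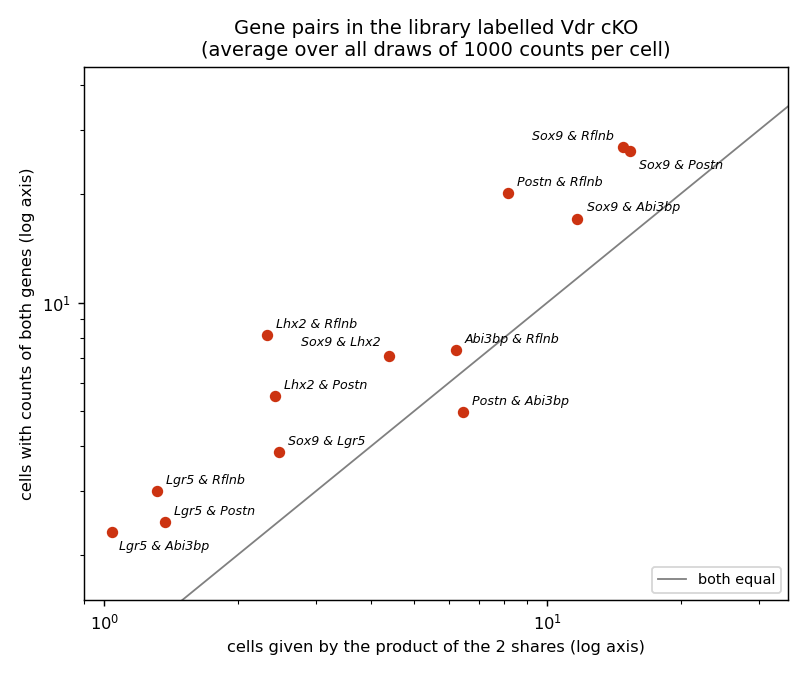
Pairs of the 8 genes in the library labelled *Vdr* cKO, for the pairs with an average of at least 2 cells, with the number of cells given by the product of the 2 shares on the x axis and the average number of cells with both on the y axis, both log axes. Points above the line are found together more often than the product, up to 3.48 times for *Lhx2* and *Rflnb*, and *Postn* with *Abi3bp* lies below it at 0.77.

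Within the library labelled *Vdr* cKO, cells with and without a count of the genes were compared in the markers of follicle and epidermis, at 1000 counts. *Sox9* cells had *Krt14* in 72.0% (66.6 to 77.0) against 58.4%, *Krt75* in 6.58% (4.06 to 9.98) against 1.51%, and a companion layer keratin in 17.4% (13.3 to 22.2) against 8.64%. *Postn* cells had *Dst*, which links hemidesmosomes to keratin filaments, in 56.3% (47.8 to 64.6) against 37.9%, and *Col17a1* in 37.3% (29.4 to 45.8) against 21.3%. *Rflnb* cells had *Krt5* in 80.4% (73.2 to 86.4) against 63.4% and *Col17a1* in 35.3% (27.7 to 43.4) against 21.3%. Cells with *Postn* or *Rflnb* thus had *Col17a1* more often than the rest, while *Sox9* cells had *Col17a1* in 25.0% (20.2 to 30.3) against 21.8%.

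Cells with at least 2 of the genes had *Krt5* in 79.2% (71.0 to 85.9) against 63.7%, *Col17a1* in 39.2% (30.6 to 48.3) against 21.3%, and *Lor* in 72.0% (63.3 to 79.7) against 83.7%. *Gata3*, which marks the inner root sheath of growing follicles, was in 39.2% (30.6 to 48.3) of them against 36.6%. A fibroblast marker was found in 2.40% (0.50 to 6.85) against 0.25%, and in 2.11% (0.44 to 6.05) of *Postn* cells, and no endothelial marker in any of the 125. With 200 genes drawn, the same cells numbered 30 and had *Col17a1* in 13.3% (3.76 to 30.7) against 10.3% and *Krt14* in 16.7% (5.64 to 34.7) against 23.2%. At that depth *Sox9* cells had *Krt14* in 26.8% (19.6 to 35.01) against 22.9% and *Postn* cells *Col17a1* in 12.7% (6.24 to 22.0) against 10.3%, so these contrasts were within counting error.

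The cells of each library were finally divided by *Krt14*, the keratin of the basal layer and outer root sheath, into *Krt14*-high cells (at least 1000 CPM of the cell's own counts) and the others. This is a range and not a cell type, and 212, 234 and 726 cells lay between 500 and 2000 CPM. *Krt14*-high cells numbered 382 (25.8%), 335 (20.2%) and 1353 (51.6%). In the library labelled *Vdr* cKO all 8 genes were higher in *Krt14*-high than in other cells (levels here leave *Krt14* itself out of the totals), from 1.501-fold (1.38 to 1.63) for *Postn* to 3.67-fold (2.42 to 5.75) for *Cd34*, beside a median of 1.11 over all genes. Of the 7 genes at the level, *Sox9* (2.22, 2.09 to 2.35), *Lhx2* (2.50, 2.09 to 3.01) and *Lgr5* (2.55, 2.02 to 3.25) were over 2-fold higher, where 11.1% of all genes were. In control 1 the count was 2 of 7 beside 20.6%, and in control 2 it was 2 of 7 beside 17.2%.

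By level, the controls gave no such order. Ratios ranged from 0 to 8.30 in control 1 and from 0 to 4.27 in control 2, and 4 and 3 of the 8 genes were above 1. The median ratio over all genes was 0.93 and 0.98 there. How many of all genes were above 1 was not counted, so nothing is read from these numbers. *Sox9* was lower in the *Krt14*-high cells of control 1 (0.37, 0.29 to 0.47) and higher in those of control 2 (1.81, 1.52 to 2.15), and *Rflnb* behaved likewise (0.41, 0.24 to 0.65, and 3.08, 2.48 to 3.81). *Postn* (6.54, 4.71 to 9.13) and *Lhx2* (3.98, 2.82 to 5.60) were higher in the *Krt14*-high cells of control 1. In control 2 their ratios were 0.78 (0.39 to 1.43) and 0.40 (0.009 to 2.65), with intervals on both sides of 1. No gene of the 8 was over 2-fold higher in *Krt14*-high cells of every library, where 2.75% of all genes were. Genes of the basal layer were divided. *Krt5* (4.56, 7.03 and 2.99), *Col17a1* (3.52, 6.29 and 2.37) and *Krt15* (2.78, 2.23 and 2.01) were over 2-fold higher in every library. *Itga6* (4.43, 4.53 and 1.82) and *Dst* (1.98, 2.68 and 1.98) were not.

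These control ratios rested on few cells. *Postn* in control 1 had 88 of its counts in *Krt14*-high cells, and *Abi3bp* had none there and 98 counts in those of control 2. Without the cell with the most counts, an alternative chosen after seeing the data, the ratio of *Postn* in control 2 was 3.27. By the share of cells in the 1 draw of 1000 counts used, 3 and 5 of the 8 genes had a ratio above 1 in control 1 and control 2. *Sox9* (1.12 and 1.51) and *Postn* (1.82 and 2.73) were among them in both controls, on few cells. *Sox9* in control 1 was in 5 *Krt14*-high and 13 other cells, and *Postn* in control 2 in 2 and 3 cells. Averaged over all draws, *Sox9* in control 1 was in 1.37% of *Krt14*-high and 1.42% of other cells, so its direction turned with the draw. The share of cells at 1000 counts in the library labelled *Vdr* cKO was 14.9% in *Krt14*-high and 8.61% in other cells for *Sox9*, 7.66% and 4.14% for *Rflnb*, and 5.86% and 5.199% for *Postn*. Level and share thus gave the same direction there, but with 200 genes drawn *Sox9* was in 5.32% of *Krt14*-high and 5.201% of other cells. At that depth *Rflnb* was in 3.18% (2.31 to 4.26) and 1.58% (0.97 to 2.42), and *Postn* in 3.33% and 2.68%. *Krt14*-high cells had a median of 759 detected genes against 619 in the others, and 393.5 against 370.5 and 498 against 503 in the controls.

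**Figure D5:**
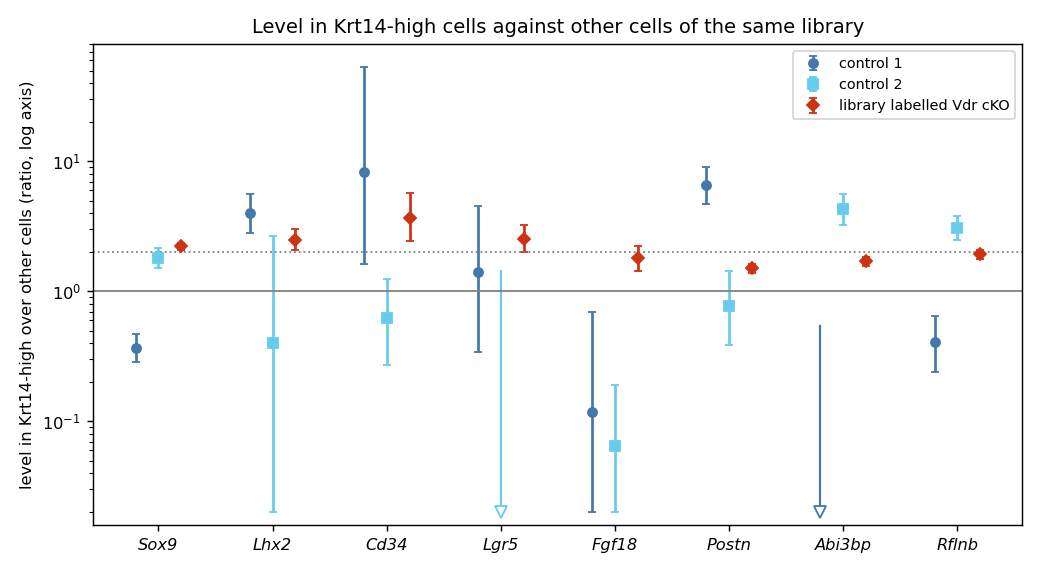
Level in *Krt14*-high cells over that in the other cells of the same library, on a log axis. Intervals are exact 95% conditional ones that take counts as independent. Open triangles at the lower edge are ratios of 0, with a line up to the upper limit, and intervals are cut at that edge. The library labelled *Vdr* cKO lies above 1 for all 8 genes (1.501 to 3.67), whereas the controls fall on both sides of the solid line at 1 and the dotted line at 2.

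Within *Krt14*-high cells alone, 6 of the 7 genes at the level exceeded both controls over 2-fold, where 12.9% of 9456 genes were. The exception was *Lhx2* at 20.4, 0.22 and 28.9 CPM, and *Cd34*, under 10 CPM, was at 1.59, 1.94 and 7.37 CPM. *Sox9* was at 23.2, 39.0 and 249 CPM there, and *Fgf18* at 0.32, 0.65 and 15.6 CPM. The levels of *Fgf18* rested on 1, 2 and 25 *Krt14*-high cells with a count, and that of *Lhx2* in control 1 on 3. *Postn* was at 28.01, 2.59 and 90.7 CPM. *Krt14* itself differed between the libraries, so that the same range need not hold the same mix of cells, and the part of that mix in these levels was not tested.

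In the other cells, 4 of the 6 genes at the level (*Lhx2*, *Postn*, *Abi3bp* and *Rflnb*) were over 2-fold above both controls, where 7.26% of 8514 genes were. *Lgr5*, under the level there, was at 0.89, 0.62 and 6.89 CPM. *Sox9* was at 63.0, 21.5 and 112 CPM in them and *Fgf18* at 2.68, 10.03 and 8.68 CPM, so neither was. *Rflnb* in these cells was at 14.9, 9.94 and 70.5 CPM, and *Abi3bp* at 2.30, 4.95 and 65.1 CPM.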

How the data were processed

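Cells were from dorsal skin of P18 mice, 2 control libraries and 1 labelled *Vdr* cKO. Per the labels, single cells were captured on a Nadia droplet instrument and sequenced, and the authors deposited tables of counts per gene and barcode, not normalised, on mm10. Whether reads were collapsed to molecules was not given in the sources used here. There were 22.8, 21.2 and 11.8 counts per detected gene and cell, and counts are not taken here as independent molecules.

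Of 8030 barcodes, 5760 were kept as cells, by a minimum of 200 genes and a maximum of 20% of counts from mitochondrial genes. Doublets were not called, and an alternative left out the 5% of cells with the most counts. Counts were summed per library and scaled to CPM, and a gene was called when it reached 10 CPM in a library and was over 2-fold apart from both controls. Log2 folds have 1 CPM added. Shares were counted after 1000 counts or 200 detected genes were drawn per cell. With 1 library labelled *Vdr* cKO no test was made, and Poisson, Clopper-Pearson and conditional binomial intervals (95%) cover no more than counting error. The Poisson and conditional binomial intervals take counts as independent and are therefore too narrow.

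The 8 genes and the gene lists were chosen with earlier results of these data known. The text names all 8, the other bulge and outer root sheath genes that were called or had the highest levels, and list members. Genes most like a member were to be named from cells of every library, with at least 20 such cells in each, which no member had. On simulated counts, with changed genes drawn from a pool of 7341, the rule called 51 of 51 genes raised 4-fold, 50 of 50 lowered 4-fold and 0 of 7298 unchanged genes at the level. The simulated libraries were given much less spread than the control libraries showed, so the 0 followed from that setting. It is no estimate of how often unchanged genes are called in these data. Alternatives covered cell filters, scaling, pseudocount, thresholds, depth and each control left out. Python 3.11.15, numpy 2.4.6, scipy 1.17.1, pandas 2.3.3, matplotlib 3.10.9, R 4.3.3, edgeR 4.0.16 (TMM factors) and DESeq2 1.42.0 (median-of-ratios factors) were used.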

Additional observations from a re-analysis of the deposited data

Results flagged for a closer look

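In the library labelled *Vdr* cKO, the level of *Fgf18* in *Krt14*-high cells was 1.79 times that elsewhere, where the controls had ratios of 0.12 and 0.06. These control ratios rested on 1 and 2 *Krt14*-high cells and on 2 and 10 other cells with a count. The difference was not tested. It turned on few cells: without the 5% of cells with the most counts the ratio in the library labelled *Vdr* cKO was 0.31, and without the cell with the most counts of the gene, an alternative chosen after seeing the data, it was 3.88.

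The barcodes that failed the cell filter also held counts of 5 of the genes, and for 3 of them the library labelled *Vdr* cKO was above both controls. How many of all genes were above both controls was not counted for these barcodes. Those of control 1 and control 2 had *Sox9* at 26.3 and 174 CPM, and those labelled *Vdr* cKO at 309 CPM. *Postn* was at 12.3, 5.44 and 55.5 CPM, and *Abi3bp* at 14.9, 5.44 and 111 CPM. The highest of each rest on 39, 7 and 14 counts, in 160 barcodes with 126039 counts in all. *Rflnb* went the other way, at 138, 3.63 and 0 CPM, as did *Cd34* at 32.4, 0 and 0 CPM, and the other 3 genes had no count there.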

How the results depend on the processing

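The number of genes called was 6 with every cell filter and scaling, of 6 or 7 at the level, beside 6.15% to 9.84% of all genes. At a minimum of 50 CPM it was 4, all of the 4 that reached it, beside 4.06%. At 3-fold it was 5, beside 4% of all genes. It was 6 without control 1, beside 16.5%, and 7 without control 2, beside 17.1%. The median log2 fold of the 8 genes (2.54) was 2.38 with all barcodes, 2.70 without the 5% of cells with the most counts, 2.37 with TMM and 2.34 with median-of-ratios factors, 2.30 as the mean of each cell's CPM and 1.56 with 10 CPM added, and ranged from 2.43 to 3.04 with a control left out. It was 2.87 without the cell with the most counts of each gene and 2.89 in *Krt14*-high cells alone, both chosen after seeing the data. Over all single-gene alternatives, 91 of 112 log2 folds stayed within the control spread, 21 moved and 0 reversed (0.24 to 4.97). That spread was the standard deviation of the 2 controls of each gene, so the count depends on how far apart they lay. *Lhx2*, with distant controls, moved in 0 of 14 though it ran from 1.14 to 3.89. *Rflnb*, with the closest controls, moved in 12 of 14 within 2.31 to 3.41. The share of cells with at least 2 of the genes (4.88%) was 3.99% without the 5% of cells with the most counts, 2.25% at 500 counts, 8.56% at 2000 counts, 16.9% without drawing, 1.14% at 200 genes and, for at least 3 genes, 0.70%. All 8 genes had a higher share of cells than in both controls with most filters and depths. At 500 counts, and without the 5% of cells with the most counts, it was 7, with *Fgf18* as the exception in each. In *Krt14*-high cells alone, chosen after seeing the data, it was 6. The number over 2-fold higher in *Krt14*-high cells of every library was 0 to 1 with a control left out, the 1 being *Lhx2* without control 2. Of all genes, 778 were above both controls, 1401 or 1473 with control 1 or control 2 left out, 159 at 50 CPM, 5094 with no minimum, 1460 at 1.5-fold and 352 at 3-fold. Causes were not tested. No paired analysis was possible because there was 1 library labelled *Vdr* cKO and no test. Depth limited *Cd34* and *Fgf18*, found in 9 and 5 drawn cells.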

Other observations

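In the library labelled *Vdr* cKO, genes were ranked by how much more often cells with a member had them at 1000 counts, a ranking made in that library alone after the values were seen. *Postn* cells had *S100a6* 24.0 percentage points more often than other cells, *Dst* 18.5 and *Col17a1* 16.0 points. *Rflnb* cells had *Krt5* 17.0 points more often, *Sox9* cells *Krt14* 13.7 points and *Krt79* 13.2 points, and *Abi3bp* cells *Ncl* 17.4 points and *Clca3a2* 15.7 points. For *Sox9*, the only member with at least 100 cells when 200 genes were drawn, the genes leading at that depth were *Ddx5*, *Ddr1* and *Selenow*.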
